A study of Mus musculus with 5480 samples.

Results

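Vascular smooth muscle cells, the contractile cells that wrap the arteries of the lung, were compared between mouse pups kept in hyperoxia and pups kept in normal air at postnatal day 7 (P7). The cells were taken by their deposited subtype label. There were 96 of them, of 201 vascular smooth muscle cells of all ages and 5480 cells of the series, which came from 10 mice. The female and the male mouse in normal air gave 27 and 31 cells, and the female and the male hyperoxia mouse gave 22 and 16. A further 6 cells of the male hyperoxia mouse, from well columns 1 to 8 of its second mesenchymal plate, were left out. The libraries were made from single sorted cells of distal lung in plates with the Tn5 transposase, without molecular identifiers. Each group holds 1 female and 1 male mouse, named in the labels, and reads were summed per mouse, so that n = 2 a group throughout. In the test of hyperoxia against normal air, the spread was estimated over mice in normal air at P1 and P21 as well. The test of cell shares also took in the mice of embryonic day 18.5. The strain, the oxygen level and the length of the exposure are not given in the sources used here.

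Vascular smooth muscle keeps vessel tone through actin and myosin filaments and lays down the elastic sheets of the vessel wall. A newborn mouse lung exposed to high oxygen is widely used as a model of bronchopulmonary dysplasia, in which alveoli and vessels grow poorly. High oxygen damages DNA and mitochondria, and damaged DNA stabilises the transcription factor p53, which raises a set of target genes. The best known of these is Cdkn1a, whose product p21 inhibits cyclin-dependent kinases and halts the cell cycle.

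The promoter of Cdkn1a is shown because its level takes up a large part of what follows. RefSeq windows from 250 bases before to 50 after a gene start (build GRCm38.p6) were searched for the p53 response element, taken as a pair of exact half-sites of the p53 consensus up to 13 bases apart. The half-site is its own reverse complement, so that 1 strand covers both. Such a pair was found for 1 of 21 matched p53 targets, Cdkn1a, against 0.0740% of 27025 genes. At least a single half-site was found for 8 of the 21 targets (38.1%) against 9.55% of all genes. The pair lies upstream of 1 of the annotated starts of Cdkn1a. The 72 bases printed here, the pair with flanking bases on both sides, span chr17:29090886-29090957 on the plus strand. Capitals mark the half-sites of the pair.
Cdkn1a: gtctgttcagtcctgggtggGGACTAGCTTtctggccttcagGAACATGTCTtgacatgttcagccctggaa
A match describes these letters only, and binding was not measured. The bases right after the second half-site, tgacatgttc, miss the consensus in their first base only, so the exact search left them in lower case. Which of these half-sites p53 uses was not tested.

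Summed over cells, the 4 mice had 26490271, 26955961, 10539791 and 12473805 reads, in the order female and male in normal air, then female and male in hyperoxia, which is kept below. The median cell had 951911, 824454, 390202 and 791582 reads. Apart from 5 cells of a CD31 sort, the 4 mice were on 4 different sequencing runs. The run of the male mouse in normal air also held the male P1 and P21 mice of the fit, while each other mouse at P7 had a run to itself. No run held both conditions, so that run, mouse and hyperoxia cannot be told apart. Xist, the RNA of the inactive X chromosome, had reads in 18 of 27 and 19 of 22 cells of the female mice and in none of the males' cells.

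The cells of the hyperoxia mice held reads of far more genes. After each cell was thinned to 100000 reads, with 1, 3, 1 and 1 shallower cells left out, the median vascular smooth muscle cell had reads of 1825.5, 1572.5, 3327 and 3801 genes. The group means of these medians were 1699 ± 179 in normal air and 3564 ± 335 in hyperoxia (SD, n = 2). The groups of medians did not overlap, while single cells did, from 860 to 5568 genes in normal air and from 1784 to 5810 in hyperoxia. Without thinning the group means were 2136 ± 167 and 4142 ± 547. With 2 mice a side an exact permutation test cannot go below p = 0.333 (two-sided), and no other test was made. Myofibroblasts of the same mice had medians of 2247.5, 2140, 4485.5 and 5309.5 genes at this depth, and early airway smooth muscle cells 3175, 3008, 3655.5 and 4343. Vascular smooth muscle cells of the P1 mice in normal air had 2807.5 and 3029, and those of the P21 mice 2060.5 and 1477. As a result, 54.4% of 12298 genes had reads in a larger share of thinned cells in both hyperoxia mice than in both mice in normal air, and 2.76% in a smaller share. The shares of cells with a read are therefore no measure of single genes here, and levels in CPM (counts scaled to a common library total) are used below.

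**Figure D1:**
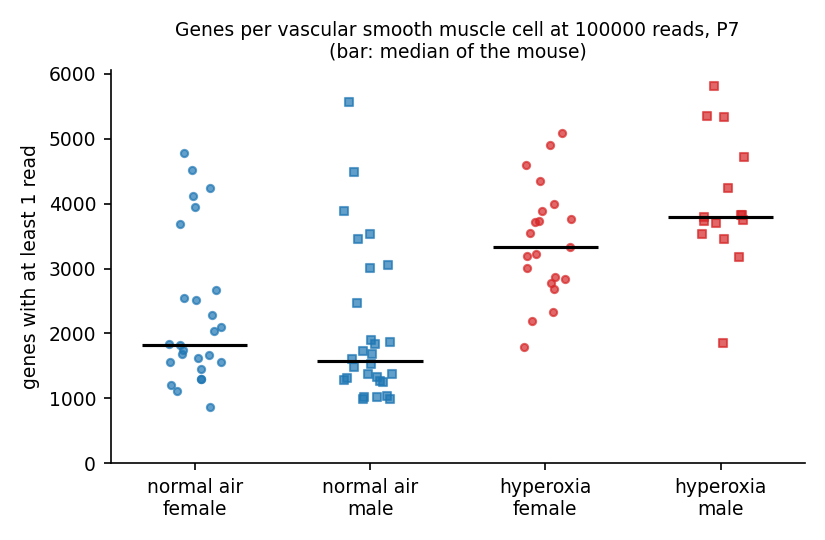
Number of genes with at least 1 read (y axis) in each vascular smooth muscle cell after thinning to 100000 reads, by mouse (x axis). Each point is a cell and each bar the median of a mouse; the medians of the hyperoxia mice are 3327 and 3801, those in normal air 1825.5 and 1572.5.

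Most markers of the labelled subtype were read in all 4 mice. Acta2, smooth muscle actin, was at 20461, 18218, 19033 and 11925 CPM and was read in 27, 30, 22 and 16 cells. Of 14 vascular smooth muscle markers, 12 passed the filter on low counts; Pln had no reads and Tesc was read at 0.741 CPM in 1 mouse only. Their summed level was 25415, 24383, 23589 and 15870 CPM, lowest in the male hyperoxia mouse. Notch3, the receptor that marks mural cells, was at 353, 373, 200 and 507 CPM, and Pdgfrb at 280, 388, 214 and 410 CPM. The groups overlapped for both. Hhip, which marks myofibroblasts and airway smooth muscle, was at 0.0674 CPM or less in each mouse, and Pdgfra at 8.96 CPM or less. Other airway markers were present, with Actc1 at 1680, 1149, 864 and 2407 CPM, and Tgfb3, Lgr6 and Foxf1 at 17.9 CPM or more in each mouse. The myofibroblast marker Aspn was at 468, 967, 426 and 422 CPM.

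Endothelial, immune and epithelial markers were low, while markers of other mesenchymal classes were higher in sum. The 9 endothelial markers summed to 121 and 219 CPM in normal air and to 243 and 268 CPM in hyperoxia. Emcn was at 0.0408 CPM or less, and Ramp2 at 97.6, 108, 58.2 and 52.5 CPM. Esam, a junction protein shared by endothelium and mural cells, made up part of the sum at 23.6, 84.3, 159 and 142 CPM (edgeR p = 0.0506 before adjustment). The 9 immune markers summed to 2.16 and 13.5 against 11.2 and 24.0 CPM, with Cd52 and Fcer1g at 0. Laptm5 of this list had no reads in normal air and was at 9.62 and 15.6 CPM in hyperoxia. The 9 epithelial markers summed to 117 and 48.5 against 123 and 90.4 CPM, with Epcam and Sftpb at 0 and Sftpc at 59.0, 36.6, 57.7 and 9.09 CPM. Krt18, a keratin of epithelium, had no reads in normal air and 26.7 and 68.6 CPM in hyperoxia, from 2 and 3 cells. The 8 adventitial fibroblast markers had a lower sum in both hyperoxia mice, at 677 and 907 against 239 and 315 CPM. Of the 5 tested, 3 (60.0%) were lower without overlap, beside 18.1% of all genes tested, and 2 overlapped. Clec3b, 1 of these 3, was at 1.88 CPM or less in each mouse. Pi16 and Dpp4 were at 0.0674 CPM or less, and Col14a1 at 226, 594, 106 and 268 CPM. The 12 pericyte markers, many of which vascular smooth muscle shares, summed to 3691 and 5258 against 3463 and 3580 CPM. Airway smooth muscle markers summed to 1927 and 1269 against 1113 and 2747 CPM, myofibroblast markers to 568 and 1086 against 430 and 490 CPM, and alveolar fibroblast markers to 2322 and 3051 against 1808 and 2628 CPM. The part of these markers in the results below was not tested.

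Vascular smooth muscle made up 4.46% and 5.44% of the cells of the mice in normal air and 4.32% and 3.49% in hyperoxia. The group means were 4.95% ± 0.695 and 3.91% ± 0.586 (SD, n = 2). Fitted over 13 subtypes in 10 mice with edgeR's quasi-likelihood test, the share differed by -0.33 on the log2 scale (SE 0.493, adjusted p = 0.738). The difference was smaller than its error. The Wilson 95% intervals of the 4 shares ran from 2.16% to 7.62%, which covers counting error only. These are shares of sorted cells, and the sort can set them.

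No gene passed the test of hyperoxia against normal air. With edgeR's quasi-likelihood test on the summed counts, 0 of 12298 genes (0%) had an adjusted p under 0.05, and 326 had an unadjusted p under 0.05. With cells thinned to 100000 reads the count was 0 of 10996, with 392 at an unadjusted p under 0.05. DESeq2 on the same sums called 203 genes, 143 higher and 60 lower, of which 79 had no reads at all in 1 of the groups. Single cells carried much of many sums, and the biological coefficient of variation was 1.19. The genes and lists below are therefore given by their values, and by whether both hyperoxia mice lay above or below both mice in normal air. By that measure 18.1% of all genes tested were higher in hyperoxia and 18.1% lower. With thinned cells the shares were 20.1% and 16.3%. With the highest cell of each gene left out in every mouse they were 20.2% and 12.8%.

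Of the 10 genes with the lowest p among those at 20 CPM or more, 4 were lower and 6 higher in hyperoxia. Rgs2, a regulator that shortens the signal of vasoconstrictor receptors, was at 344, 363, 52.0 and 51.6 CPM. The groups were far apart, by -2.76 on the log2 scale (SE 0.534, unadjusted p = 0.000323 and adjusted p = 1 by edgeR). It was read in 14 of 27 and 13 of 31 cells in normal air and in 5 of 22 and 2 of 16 cells in hyperoxia. Thinned, Rgs2 was at 367, 347, 56.8 and 82.0 CPM. Without its highest cell in every mouse it was at 243, 284, 7.31 and 5.19 CPM. Cavin1, the coat protein of caveolae, which are abundant in smooth muscle, was at 539, 554, 1782 and 2732 CPM (log2 difference 2.00, SE 0.474). Cavin1 was read in 21, 29, 21 and 16 cells, so that most cells of each mouse contributed. Its thinned levels were 451, 686, 2352 and 2727 CPM, and its groups were apart at each depth.

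Spry2, a feedback inhibitor of receptor tyrosine kinases, was at 15.9, 19.7, 132 and 403 CPM (log2 difference 3.67, SE 0.875). It had reads in 8, 13, 18 and 13 cells. Both hyperoxia mice lay above the mice in normal air, the male well above the female. Mt1, a metallothionein that binds zinc and copper, was at 72.2, 27.0, 0.323 and 4.11 CPM. Its groups did not overlap, but reads came from 7, 3, 1 and 3 cells. Apold1, a protein known from activated endothelium, was at 1.50, 1.92, 22.3 and 105 CPM, with reads in 3, 2, 1 and 4 cells. Without the highest cell the groups of Apold1 overlapped.

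Psrc1, a microtubule-binding protein and p53 target, had no reads in normal air and 148 and 78.6 CPM in hyperoxia. Against a floor of 3 reads over the group this is at least 1903-fold higher, but the reads came from 3 and 4 cells. Amdhd2, an enzyme of amino sugar breakdown, had no reads in normal air and 63.8 and 19.7 CPM in hyperoxia, from 5 and 2 cells (at least 686-fold higher). Both were seen in a minority of hyperoxia cells. Tgfbi, a secreted protein of the matrix and one of the myofibroblast markers used here, was at 62.0 and 104 CPM in normal air and at 0.162 and 0.0674 CPM in hyperoxia. The hyperoxia mice held 2 and 1 reads, a ratio of 741-fold lower (exact 95% counting interval 253 to 3593). In normal air Tgfbi had reads in 4 of 27 and 3 of 31 cells, and 1 cell held 60.7% and 85.7% of them.

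Trac, which encodes the constant part of the T cell receptor alpha chain, was at 391, 638, 16.9 and 6.13 CPM. It was the tested gene with the lowest p after thinning, with a log2 difference of -5.37 (SE 0.850, adjusted p = 0.0708 by edgeR). Reads came from 7 of 27 and 7 of 31 cells in normal air and from 2 and 1 cells in hyperoxia. The other T cell genes Cd3e, Cd3g, Trbc1 and Trbc2 had no reads in any of the 4 mice, and Cd3d had 1 read. These genes were looked up after the values of Trac were seen.

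**Figure D2:**
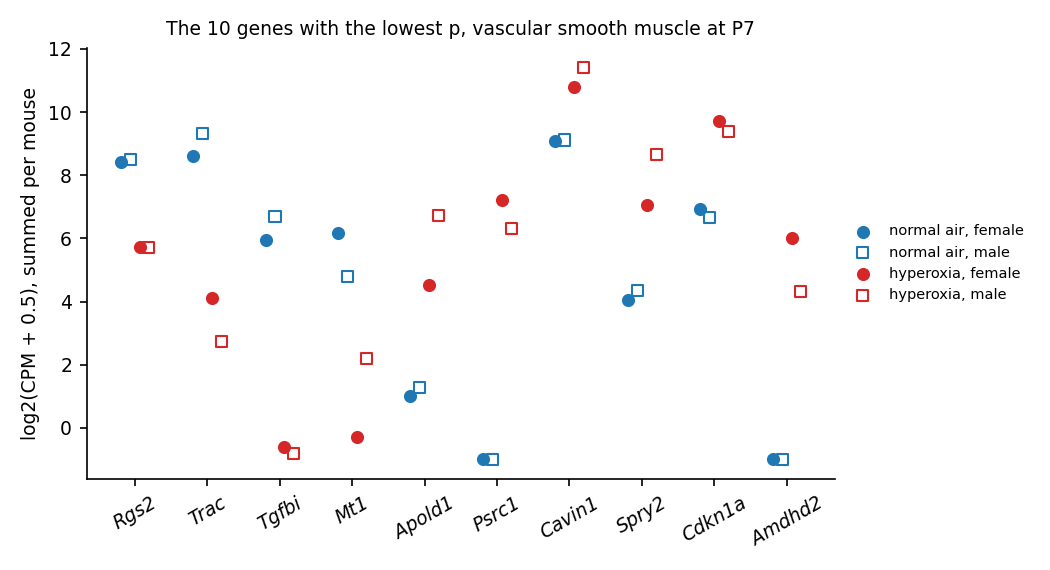
Level of the 10 genes with the lowest p, as log2(CPM + 0.5) of the reads summed per mouse (y axis), by gene (x axis). Blue points are the mice in normal air and red points the hyperoxia mice, filled for females and open for males; in each gene both red points lie on 1 side of both blue points, as the choice of genes requires.

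Targets of p53 were higher in hyperoxia more often than genes at large. Cdkn1a was at 121 and 102 CPM in normal air and at 836 and 673 CPM in hyperoxia. Both hyperoxia mice lay far above both mice in normal air. The difference was 2.76 on the log2 scale (SE 0.706, unadjusted p = 0.00251 and adjusted p = 1 by edgeR; adjusted p = 0.0104 by DESeq2). Thinned to equal depth, Cdkn1a was at 91.0, 95.2, 543 and 768 CPM with the same log2 difference of 2.76. It was read in 5 of 27 and 3 of 31 cells in normal air and in 6 of 22 and 9 of 16 in hyperoxia. In the female hyperoxia mouse 1 cell held 77.2% of the reads. Without the highest cell of every mouse the levels were 72.4, 27.6, 198 and 419 CPM, and the groups were still apart.

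Of 28 tested p53 targets, 18 (64.3%) were higher in both hyperoxia mice than in both mice in normal air and 2 (7.14%) lower, beside 18.1% in each direction over all genes. None passed an adjusted p of 0.05 in edgeR and 2 passed in DESeq2. The median log2 difference over the list was 1.76, with Psrc1 at its fitted value or at its bound, beside -0.04 over all genes tested. It was 1.33 in the pair of female mice and 2.06 in the pair of male mice. With thinned cells 17 of 28 were higher and 1 lower (median 1.68), beside 20.1% and 16.3%. With the highest cell of each gene left out 17 were higher and 0 lower, beside 20.2% and 12.8%.

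The members cover several arms of the p53 response. Among those that halt the cell cycle or help repair, Ccng1, a cyclin that feeds back on p53, was at 27.8, 15.4, 63.8 and 112 CPM (unadjusted p = 0.0770). Sesn2, a sestrin that restrains growth signalling, was at 0, 1.67, 16.7 and 22.5 CPM, with reads in 0, 1, 2 and 2 cells. The other members are named to account for the whole list. Those of cell death that were higher without overlap were Phlda3, Trp53inp1, Fas, Pmaip1, Bbc3, Ei24, Perp, Tnfrsf10b and Aen. Rrm2b and Polk, which serve DNA synthesis and repair, the antiproliferative Btg2, the epoxide hydrolase Ephx1 and the peptide transporter Tap1 completed the 18. Some of these were sparse, such as Pmaip1 at 0.0366, 0, 0.727 and 11.2 CPM. Bbc3 and Rrm2b overlapped between the groups with thinned cells. Gdf15, at 45.7, 8.45, 4.28 and 4.38 CPM, and the long noncoding RNA Pvt1 were lower. Mdm2, the ubiquitin ligase that degrades p53 and itself a target, overlapped between groups at 56.0, 39.1, 13.5 and 117 CPM, with 1 hyperoxia mouse lowest and the other highest. Eda2r, Zmat3, Bax, Sesn1, Plk2, Plk3 and Dcxr overlapped as well. Trp53cor1 did not pass the filter on low counts.

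**Figure D3:**
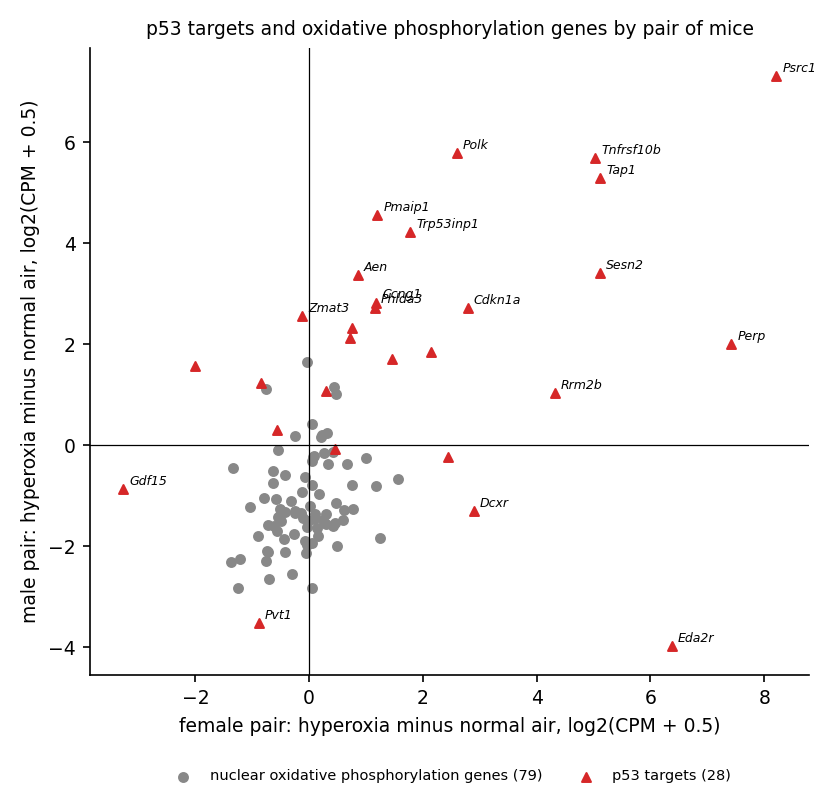
Difference between hyperoxia and normal air in log2(CPM + 0.5) for the female pair of mice (x axis) and the male pair (y axis). Red triangles are the 28 p53 targets, most of them above 0 in both pairs; grey points are the 79 nuclear genes of oxidative phosphorylation, which spread around 0 in the female pair and lie mostly below 0 in the male pair.

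Regulators of the step from G1 into DNA replication lay on both sides but were more often higher. Of 12 tested, 6 (50.0%) were higher and 2 (16.7%) lower, beside 18.1% of all genes each way. With thinned cells 7 were higher and 2 lower, beside 20.1% and 16.3%. The median was 0.49 and ranged from 0.26 to 0.99 when 1 mouse was left out. Cdk6, a kinase that drives cells out of G1, was at 78.9, 217, 529 and 572 CPM (log2 difference 2.10, SE 0.622). It was read in 20, 27, 20 and 14 cells. Its partner Ccnd1, cyclin D1, was at 4.43, 5.22, 74.1 and 59.5 CPM, from 2, 3, 6 and 5 cells. Cdkn1c, an inhibitor of the same family as p21, was at 49.1, 25.5, 5.01 and 16.8 CPM. Cdkn1a is also a member of this list.

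Genes of DNA replication and mitosis were sparse. Of 23 tested, 1 (4.35%) was higher and 4 (17.4%) lower, beside 18.1% of all genes each way, and 18 overlapped. The pairs of mice went opposite ways, with a median log2 difference of -2.41 in the female and 2.14 in the male pair. The summed level was 1384, 385, 361 and 1090 CPM. The 4 lowest-p members include Pcna, the sliding clamp of DNA polymerase, at 114, 119, 32.2 and 43.5 CPM (unadjusted p = 0.0844). The helicase subunits Mcm2 and Mcm3 were at 104, 52.2, 8.57 and 4.51 CPM and at 9.96, 68.9, 1.13 and 1.08 CPM. Reads of Mcm3 came from 2, 4, 2 and 1 cells. The mitotic genes of the list overlapped between groups apart from Cdk1, which was lower, and Cenpf, which was higher, both named after their values were seen.

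Nuclear genes of the respiratory chain were lower in the male pair of mice, and near even in the female pair. These encode the subunits of complexes I to V, which carry electrons to oxygen and make ATP. Of 79 tested, 36 (45.6%) were lower in both hyperoxia mice and 2 (2.53%) higher, beside 18.1% each over all genes, and none passed the adjusted p. The median log2 difference was -0.66. It was -1.32 in the male pair but -0.03 in the female pair, and 70 of 79 genes were lower in the male pair against 42 of 79 in the female pair. Without the male mouse in normal air the median was -0.23, and without the male hyperoxia mouse -0.22. The summed level of the list was 16787 and 23829 CPM in normal air and 15832 and 10514 CPM in hyperoxia, so that the male mice held both extremes.

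By complex, 17 of 36 tested members were lower for complex I, 0 of 4 for complex II, 3 of 9 for complex III, 7 of 12 for complex IV and 9 of 17 for the ATP synthase. Ndufs7, an iron-sulphur subunit of complex I, was at 239, 453, 99.5 and 63.5 CPM (log2 difference -2.01, SE 0.639). Ndufb10 was at 278, 578, 107 and 116 CPM, Ndufb8 at 362, 616, 214 and 125 CPM, and Ndufc1 at 202, 311, 87.0 and 64.7 CPM. For these 4 subunits of complex I the groups did not overlap, and they were read in 12 to 27 cells of each mouse. Cytochrome c, Cycs, and the complex I subunit Ndufb3 were the 2 that were higher, named after their values were seen. With thinned cells 30 of 77 were lower and 1 higher (median -0.50), beside 16.3% and 20.1%.

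Of 15 superoxide dismutases, peroxidases and catalase, which remove reactive oxygen, 2 (13.3%) were higher and 7 (46.7%) lower, beside 18.1% of all genes each way (median -0.46). With thinned cells 2 were higher and 5 lower. The 2 were Sod1, the cytosolic superoxide dismutase, at 141, 208, 308 and 331 CPM, and Gpx3, the secreted glutathione peroxidase, at 105, 206, 411 and 297 CPM. Gpx3 was read in 8, 6, 5 and 8 cells. The peroxiredoxin Prdx4 was at 407, 372, 214 and 153 CPM and Prdx1 at 695, 791, 520 and 341 CPM, lower in both hyperoxia mice. Targets of NRF2, the main transcription factor of the oxidant response, and metallothioneins counted 4 higher (17.4%) and 7 lower (30.4%) of 23, of which the first is close to the share over all genes. The ferritin chains Ftl1 and Fth1, which store iron, were at 1149, 1692, 629 and 530 CPM and at 1069, 1919.6, 799.5 and 588 CPM. Both have near-identical copies in the genome, so that their counts are uncertain. Srxn1, sulfiredoxin, was at 0, 0.490, 14.2 and 29.4 CPM from 0, 1, 2 and 3 cells.

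Most contractile genes overlapped between the groups. Of 25 tested, 3 were higher and 7 lower, beside 18.1% in each direction, with a median of -0.32. With thinned cells 5 of 24 were higher and 7 lower. That median was -0.03 when library sizes alone were used for scaling, a choice that moved the median of all genes from -0.04 to 0.23. Myl9, the regulatory light chain of smooth muscle myosin, was at 7752, 8618, 5386 and 3386 CPM (log2 difference -0.93, SE 0.472, unadjusted p = 0.0734). It was read in all but 1 cell, and the groups did not overlap. Tropomyosin Tpm2 was at 1632, 2488, 1319.8 and 703 CPM, the essential light chain Myl6 at 1333, 2018, 1164 and 693 CPM, and Ppp1r14a, an inhibitor of myosin phosphatase, at 168, 385, 123 and 137 CPM. The groups did not overlap for any of these 4 genes. Myl6 has near-identical copies in the genome, so that its counts are uncertain.

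The classical contractile markers overlapped or nearly so. Myh11, the smooth muscle myosin heavy chain, was at 685, 1109, 797 and 633 CPM. Cnn1, calponin, was at 862, 539, 906 and 596 CPM, and Des, desmin, at 578, 356, 427 and 293 CPM. Tagln was at 552, 622, 730 and 676 CPM, higher in both hyperoxia mice by 0.25 on the log2 scale (SE 0.493), and this difference was below its error. The differences of Acta2 (-0.35, SE 0.434), Myh11 (-0.36, SE 0.528), Cnn1 (0.11, SE 0.722) and Des (-0.36, SE 0.472) were below their errors too. Without the male mouse in normal air the difference of Myh11 was 0.30, and without the female mouse in normal air that of Tagln was -0.0019. That of Cnn1 was -0.17 with thinned cells. Of 12 tested vascular markers, 3 (25.0%) were lower without overlap and 1 (8.33%) higher, beside 18.1% of all genes each way. With thinned cells 3 were lower and 2 higher. The 3 lower in the sums were Map3k7cl at 298, 1326, 234 and 120 CPM, Mustn1 at 743, 918, 557 and 314 CPM, and the neurotrophin receptor Ntrk3 at 420, 332, 129 and 244 CPM. Of 19 regulators that act with myocardin and SRF, the factors that switch on contractile genes, 1 was higher (5.26%) and 4 lower (21.1%), beside 18.1% of all genes each way. With thinned cells 3 were higher and 2 lower, and with the highest cell of each gene left out 4 were higher and 2 lower, so the side of the list depended on the setting.

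Elastic fibre genes were lower more often than genes at large. Of 19 tested, 10 (52.6%) were lower in both hyperoxia mice and 2 (10.5%) higher, beside 18.1% of all genes each way, with a median of -0.72. The summed adventitial fibroblast markers were lower in the same mice, at 677, 907, 239 and 315 CPM, and Mfap5, a member of both lists, was at 371, 197, 127 and 0 CPM. Their part in the result was not tested. The median was -0.72 in the female and -0.64 in the male pair. Leaving out 1 mouse at P7 gave medians from -0.83 to -0.51, and thinned cells gave -0.54 with 8 lower and 2 higher. Elastin itself, Eln, overlapped at 12919, 11968, 7832 and 14116 CPM. Mfap2, a microfibril protein, was at 778, 1021, 484 and 458 CPM (log2 difference -0.89, SE 0.475). The latent TGF-beta binding proteins Ltbp2, at 1021, 709, 351 and 491 CPM, and Ltbp1, at 583, 914, 554 and 271 CPM, were also lower. So was Loxl1, which crosslinks elastin, at 793, 570, 251 and 511 CPM. None passed the adjusted p.

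Other matrix genes were more often lower than higher in the summed counts, but not with thinned cells. Of 16 fibrillar collagens and their processing enzymes 1 was higher and 6 (37.5%) lower, beside 18.1% of all genes in each direction, and with thinned cells 3 were higher and 2 lower. Of 16 basement membrane genes 2 were higher and 6 (37.5%) lower, and with thinned cells 4 (25.0%) were higher and 4 (25.0%) lower. Over all genes the thinned shares were 20.1% and 16.3%. With the highest cell of each gene left out, 3 fibrillar collagen genes were higher and 6 (37.5%) lower. For basement membrane genes these counts were 3 and 5 (31.3%), beside 20.2% and 12.8% of all genes. Col3a1, the collagen of distensible vessels, was at 979, 1734, 488 and 730 CPM (log2 difference -1.14, SE 0.459). Lamc1, the shared gamma chain of laminins, was at 138, 525, 95.9 and 89.7 CPM. In the other direction, the type IV collagen chains Col4a2 and Col4a5 were at 292, 200, 414 and 735 CPM and at 0, 0.122, 21.6 and 33.2 CPM. Col4a5 was read in 0, 2, 6 and 7 cells. Among 19 genes of the synthetic state, into which smooth muscle can shift when it proliferates, 4 (21.1%) were higher and 4 (21.1%) lower. Both are close to the share over all genes. Its lowest-p members were all lower. Tenascin C, Tnc, was at 429, 314, 119 and 24.6 CPM, nonmuscle myosin Myh10 at 437, 564, 181 and 212 CPM, Col8a1 at 63.7, 132, 23.4 and 3.77 CPM, and fibronectin, Fn1, at 995, 1479.7, 709 and 791 CPM.

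Receptors and channels of vessel tone were mixed. Of 21 tone receptors and cyclic nucleotide genes, 1 (4.76%) was higher and 3 (14.3%) lower, beside 18.1% of all genes each way. With thinned cells 3 of 18 were higher and 2 lower. Ednra, the endothelin receptor of smooth muscle, was at 569, 584, 212 and 222 CPM (log2 difference -1.41, SE 0.596, unadjusted p = 0.0380). It was read in 19, 18, 16 and 13 cells, and the mice of each group were close to each other. Gucy1a1, a subunit of the nitric oxide receptor, was at 858, 1259, 738 and 589 CPM. Of 23 ion channel and calcium genes, 7 (30.4%) were higher and 2 (8.70%) lower, beside the same 18.1%. Their thinned counts were 5 of 21 higher (23.8%) and 1 lower (4.76%), beside 20.1% and 16.3% of all genes. Abcc9, the regulatory subunit of vascular KATP channels, was at 0.879, 6.73, 28.4 and 30.7 CPM. Itpr1, which releases stored calcium, was at 95.6, 64.4, 31.6 and 7.48 CPM. Reads of these 2 genes came from 3 to 16 cells of each mouse.

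Signalling genes lay in both directions. In the Notch pathway, through which neighbouring vessel cells instruct each other, 3 of 12 (25.0%) were higher and 2 (16.7%) lower. The share over all genes was 18.1% each way. The ligand Jag1 was at 85.3, 299, 472 and 687 CPM (log2 difference 1.73, SE 0.634) and was read in nearly every cell (23, 30, 22 and 15). The receptor Notch2 was at 23.6, 12.4, 65.8 and 185 CPM. The target Hey2 was higher, at 13.8, 22.8, 65.7 and 109 CPM, and the target Hey1 lower, at 49.9, 32.9, 0.242 and 1.08 CPM, with Hey1 reads in 5, 4, 1 and 2 cells. In the TGF-beta and BMP pathway 5 of 24 (20.8%) were higher and 3 (12.5%) lower, of which the first is close to that share. The BMP targets Id3 and Id1 were lower, at 2572, 2843, 1131 and 1144 CPM and at 88.9, 229, 49.6 and 65.6 CPM. Id4 was higher, at 118, 134, 145 and 177 CPM, and Id2 overlapped between the groups, both named after their values were seen. Ctgf was at 74.3, 118, 162 and 468 CPM, and its difference depended on the male hyperoxia mouse, at -0.14 without it against 1.78 with it.

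Of 27 growth factor genes 5 (18.5%) were higher and 3 (11.1%) lower, beside 18.1% of all genes each way. Igfbp4, which binds insulin-like growth factors, was at 82.4, 80.2, 319 and 615 CPM (log2 difference 2.31, SE 0.672). It was read in 8, 15, 15 and 12 cells, and the groups were well apart. Of 20 immediate early genes, which respond within minutes to stimulation and to tissue dissociation, 8 (40.0%) were higher and 2 (10.0%) lower (median 0.39). Jun was at 271, 256, 380 and 516 CPM and Zfp36 at 240, 348, 487 and 580 CPM. The nuclear receptor Nr4a1 was lower, at 1640.3, 1332, 503 and 658 CPM (log2 difference -1.36, SE 0.414). Among 17 cytokines, chemokines and adhesion genes 1 (5.88%) was higher and 2 (11.8%) lower. Nfkbia, the inhibitor of NF-kappaB, was at 832, 759, 361 and 293 CPM, a difference of -1.28 that was 0.62 when the left-out wells were kept in.

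**Figure D4:**
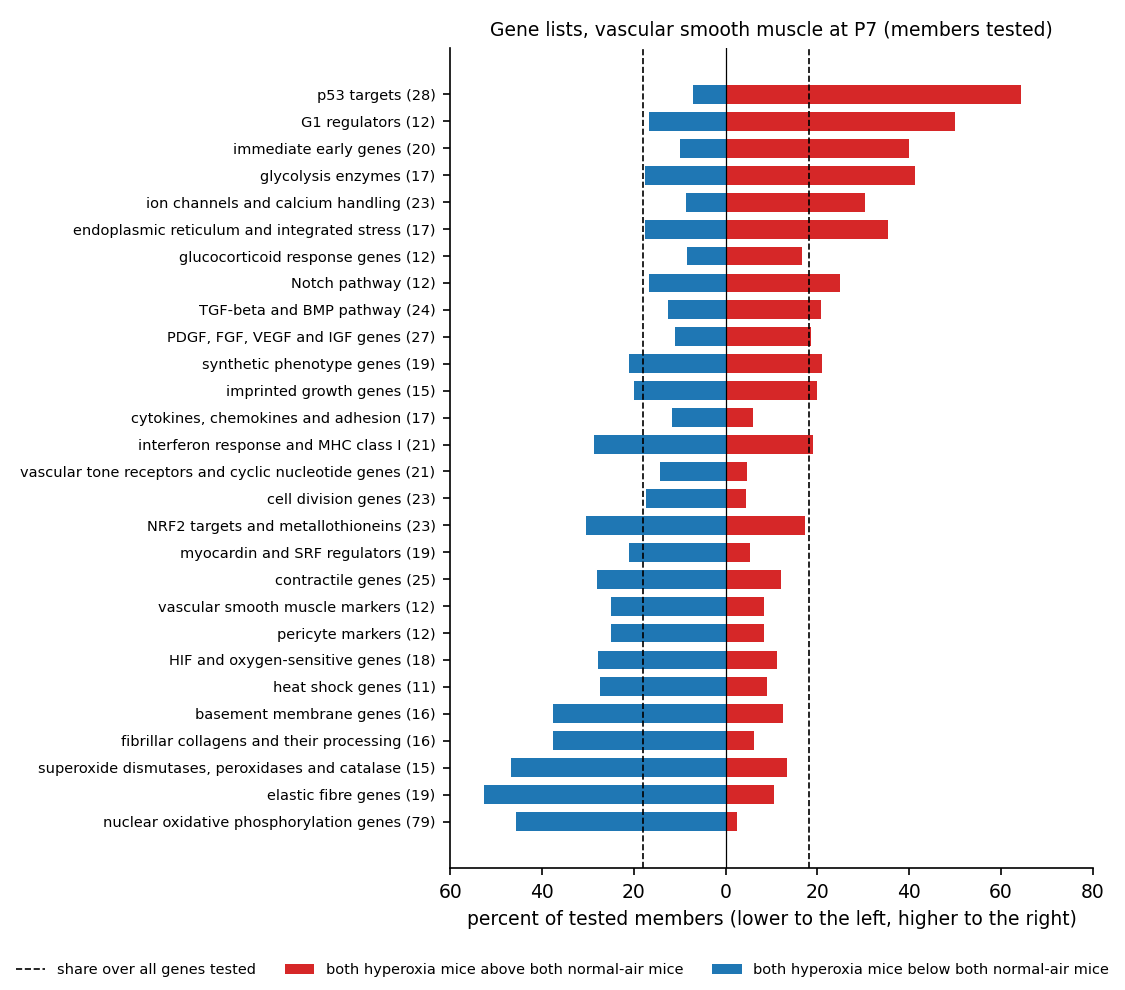
Share of tested members (x axis, percent) that were higher in both hyperoxia mice (red, to the right) or lower in both (blue, to the left), for lists with at least 10 tested members (y axis, number tested in brackets). Dashed lines give the share over all genes tested, 18.1% each way; p53 targets reach 64.3% higher, and elastic fibre and oxidative phosphorylation genes 52.6% and 45.6% lower.

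The same lists were set beside the 2 contractile or contractile-like classes of the same mice, early airway smooth muscle and myofibroblasts. In early airway smooth muscle 18 of 26 p53 targets were higher and 2 lower, beside 16.9% and 20.4% of all genes there. In myofibroblasts 24 of 27 were higher and 0 lower, beside 21.9% and 25.3%. Median log2 differences of the list were 1.76 in vascular smooth muscle, 1.29 in early airway smooth muscle and 2.59 in myofibroblasts. Cdkn1a was at 141, 25.6, 1659 and 1007 CPM in early airway smooth muscle and at 82.3, 59.9, 2843 and 2979 CPM in myofibroblasts. Its difference was smaller in vascular smooth muscle by 1.46 and 2.59 on the log2 scale, and neither gap passed the test of the difference (edgeR adjusted p = 0.710 and 0.529).

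The counts of oxidative phosphorylation genes leaned to different sides. In early airway smooth muscle 20 of 78 (25.6%) were higher and 4 (5.13%) lower (median 0.01), beside 16.9% and 20.4% of all genes there. In myofibroblasts 3 of 79 (3.80%) were higher and 51 (64.6%) lower (median -0.57), beside 21.9% and 25.3%. No gene of this list passed the test of the difference between classes, so a difference between vascular and airway smooth muscle is not shown for any of them. Elastic fibre genes counted 2 higher (10.5%) and 10 lower (52.6%) of 19 in early airway smooth muscle, beside 16.9% and 20.4%. In myofibroblasts they counted 2 higher (10.5%) and 9 lower (47.4%), beside 21.9% and 25.3%. Genes of DNA replication and mitosis counted 2 higher (11.8%) and 5 lower (29.4%) of 17 in early airway smooth muscle, beside 16.9% and 20.4%. In myofibroblasts they counted 1 higher and 18 lower of 23, beside 21.9% and 25.3% of all genes there.

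**Figure D5:**
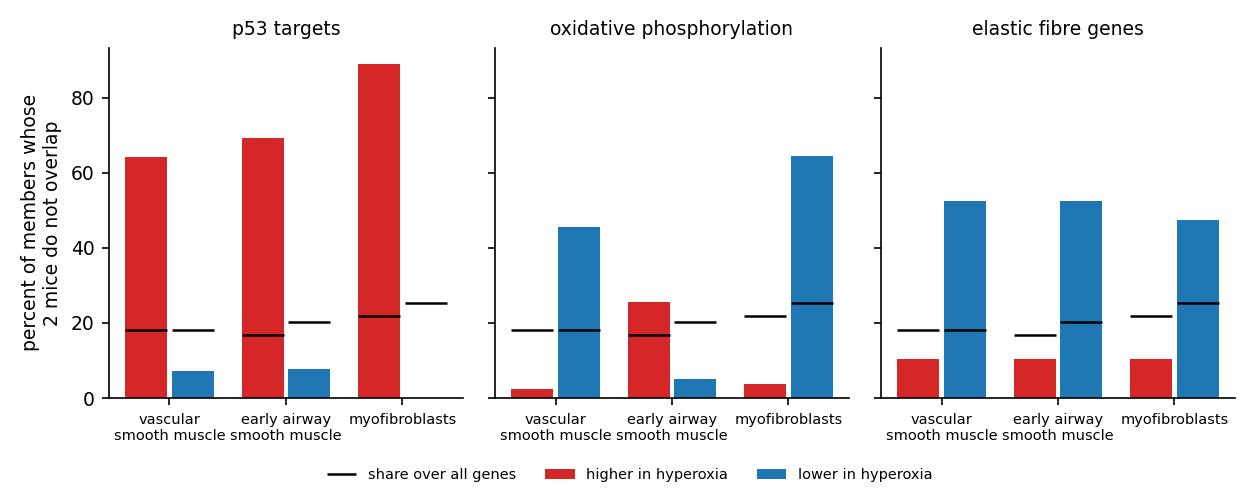
Percent of list members (y axis) whose 2 hyperoxia mice were both higher (red) or both lower (blue) than both mice in normal air, in 3 cell classes (x axis) for 3 lists. Black lines give the same share over all genes of that class; p53 targets exceed it in red in each class, and oxidative phosphorylation genes exceed it in blue in vascular smooth muscle and myofibroblasts.

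The effect of hyperoxia was tested for a difference between classes over 14223 genes. Against early airway smooth muscle 1 gene passed (0.00703%), and against myofibroblasts 2 passed (0.0141%). Tgfbi passed in both, with differences of -9.71 (SE 0.545, edgeR adjusted p = 0.000624) and -10.26 (SE 0.548, adjusted p = 0.000406) on the log2 scale. It was at 9653, 8557, 11826 and 10448 CPM in early airway smooth muscle and at 4989, 3414, 7469 and 7202 CPM in myofibroblasts. Its level in vascular smooth muscle was therefore low even in normal air, where 7 cells held its reads. In hyperoxia it had 2 and 1 reads there. Its SEs, derived from the F statistic of the test, are therefore no measure of counting error. Pamr1, a secreted protease-like protein, passed against myofibroblasts, and its reads in vascular smooth muscle, 753, 1666, 0 and 1, came from 3, 4, 0 and 1 cells. Without either hyperoxia mouse no gene passed in either test. With thinned cells Rgs2 passed against early airway smooth muscle (difference -2.97, adjusted p = 0.0310), where it was at 832, 943, 776 and 1720 CPM on the summed counts. On the summed counts the difference for Rgs2 was -3.08 with an adjusted p of 0.216.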

How the data were processed

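Read counts per gene and cell were deposited by the authors, 18072 genes in 5480 cells. STAR 2.5.2b, HTSeq 0.10 and the build GRCh38 are named in the submitters' processing notes; that is a human build, so no coordinates of counted genes are given. Cells carry no molecular identifiers, so reads are not independent molecules, and intervals cover counting error only. Counts were summed per mouse over labelled cells and fitted with edgeR 4.0.16 in R 4.3.3 (TMM factors, filterByExpr, quasi-likelihood test, two-sided, Benjamini-Hochberg adjustment) on 8 mice with at least 10 cells (P1, P7 and P21 in normal air, P7 hyperoxia), with group and sex as terms and 3 residual degrees of freedom. Classes were compared with mouse as a block. CPM use TMM-scaled library sizes. Each SE of an edgeR log2 difference is the size of the difference divided by the square root of the F statistic of its test. It is not a fitted standard error, and it is no measure of counting error where a group holds few reads. For pairs of mice a pseudocount of 0.5 CPM was added. Thinning drew reads without replacement (seed 7). Procedures were tested on simulated data. DESeq2 1.42.0 was an alternative. Members and all 40 lists were chosen with earlier results of these data known. Named are the 10 lowest-p genes at 20 CPM or more without overlap, up to 4 lowest-p members of a list, and 9 fixed genes; others are said to be named after their values were seen or to account for a list. Which of the genes within this rule are described was chosen with their values known, and 1 is not reported here. The table holds no cytosolic ribosomal protein genes. Of the other lists, erythroid and mesothelial markers had no tested member.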

Additional observations from a re-analysis of the deposited data

Results flagged for a closer look

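The effect of hyperoxia on Tgfbi differed between cell classes by the test of the difference itself. It was lower in vascular smooth muscle than in early airway smooth muscle by -9.71 on the log2 scale (SE 0.545, edgeR adjusted p = 0.000624) and lower than in myofibroblasts by -10.26 (SE 0.548, adjusted p = 0.000406). In vascular smooth muscle both hyperoxia mice were below both mice in normal air, and in both other classes the hyperoxia mice were above. Pamr1 differed in the same way from myofibroblasts, by -11.07 (SE 1.04, adjusted p = 0.0210). Both rest on reads in 3 or 4 vascular smooth muscle cells of each mouse in normal air. In hyperoxia Tgfbi had 2 and 1 reads and Pamr1 0 and 1. The SEs, derived from the F statistic, are therefore no measure of counting error.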

How the results depend on the processing

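The count of called genes was 0 under RLE factors, library sizes only, no filter, only the 4 mice at P7, the CD31 sort left out, the left-out wells kept in, the first plate alone and cells thinned to 100000 reads. It was 1 with cells thinned to 50000 reads (Trac, lower) and 203 with DESeq2. Leaving out 1 mouse gave 0 to 1 genes on the sums (Mfap5, lower, without the female hyperoxia mouse). With thinned cells, an alternative chosen after seeing the data, it gave 9 genes without the female hyperoxia mouse, 3 without the male, 4 without the male in normal air, 0 without the female, 8 and 6 without a P1 mouse, and 1 without either P21 mouse. The sex term is a replicate block that pairs mice of the same sex across groups: without the replicate block 0 genes were called and the share differed by -0.33 (adjusted p = 0.736), so no call changed. The deviations of the female mice from their group means correlated at -0.039. The share kept its sign under its alternatives, from -0.60 to -0.09 with 1 mouse left out, at adjusted p from 0.295 to 1. The difference in genes per cell lay between 1628 and 2102. The test against early airway smooth muscle called 5 genes with thinned cells and 0 to 4 with 1 mouse left out; that against myofibroblasts called 1 with only the 2 classes fitted and 0 to 4 with 1 mouse left out. The sign was followed for 80 of the genes given with values, and Myh11, Tagln, Cnn1, Notch3, Pdgfrb, Eln, Ctgf, Nfkbia and Mdm2 changed it somewhere. Other genes with values, among them Actc1, Aspn and Col14a1, were not followed. On the log2 scale Notch3 was at 0.19 with library sizes only and 0.12 at 50000 reads, Pdgfrb at 0.14 with library sizes only, 0.047 at 100000 and 0.0062 at 50000 reads, and Eln at 0.085 with library sizes only and 0.0087 with the first plate. Cnn1 was at -0.17 at 100000 and -0.066 at 50000 reads, and Nfkbia at 0.62 with the wells kept in. Mdm2 was at -0.14 with the wells kept in, -1.09 with the first plate and -0.23 with only the mice at P7. With 1 mouse left out the ranges were -0.90 to 0.30 for Myh11, -0.0019 to 0.51 for Tagln, -0.32 to 0.49 for Cnn1 (-0.20 without the female in normal air), -0.87 to 0.46 for Notch3, -0.36 to 0.020 for Pdgfrb, -0.70 to 0.19 for Eln, -0.14 to 2.92 for Ctgf and -1.92 to 1.41 for Mdm2. The cause was not tested. Depth limits genes read in a few cells, whose sums rest on those cells.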

Other observations

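Further lists are given by their counts, beside 18.1% of all genes in each direction. Glycolytic enzymes counted 7 higher (41.2%) and 3 lower of 17, and 5 higher and 2 lower with thinned cells. Endoplasmic reticulum and integrated stress genes counted 6 higher (35.3%) and 3 lower of 17, and Mthfd2, the mitochondrial folate enzyme, was at 149, 85.5, 7.92 and 0.0674 CPM. Interferon and MHC class I genes counted 4 higher and 6 lower of 21, with the interferon-induced Ifi27 at 275, 416, 176 and 72.2 CPM. HIF and oxygen-sensitive genes counted 2 higher and 5 lower of 18, heat shock genes 1 and 3 of 11, glucocorticoid response genes 2 and 1 of 12, and imprinted growth genes 3 and 3 of 15. Cryab, a small heat shock protein of muscle, was at 1039, 2028, 828 and 399 CPM, and its groups did not overlap. Glial and nerve markers summed to 153, 433, 169 and 178 CPM, and cardiac and striated muscle markers to 42.0, 134, 132 and 49.5 CPM.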
